A study of Mus musculus with 5 samples.

Results

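Mitophagy is the removal of mitochondria by autophagy, in which a double membrane closes around cargo and fuses with the lysosome. Receptors on the mitochondrial surface or recruited to it bind the lipid-bound Atg8 proteins of that membrane. Bnip3, Bnip3l and Fundc1 are receptors that sit in the outer mitochondrial membrane, and Bnip3 is a well known target of the hypoxia-inducible factors. On damaged mitochondria the kinase Pink1 promotes the building of ubiquitin chains, which the soluble receptors Optn and Sqstm1 (p62) bind. Bnip3l, also called Nix, is best known for clearing mitochondria from maturing red blood cells, and mitophagy has been described during the reprogramming of fibroblasts.

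The genes described here are the 10 mitophagy and autophagy genes Bnip3, Bnip3l, Fundc1, Phb2, Pink1, Optn, Sqstm1, Map1lc3b, Gabarapl1 and Ulk1. They were chosen by name and function, and all 10 were found by gene ID among the 29267 genes in the files. The name receptor is used loosely for some of them, because Pink1 and Ulk1 are kinases, and Map1lc3b and Gabarapl1 are the Atg8 proteins that receptors bind.

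RNA was sequenced from mouse embryonic fibroblasts (MEFs) of the ICR strain undergoing reprogramming, with 1 library for each of 5 groups. At day 4 the cells expressed either Flag, the control, or CypD, the cyclophilin D protein that is encoded by Ppif and promotes opening of the mitochondrial permeability transition pore. At day 8 the cells were untreated (control) or had been treated. Mastoparan is a peptide from wasp venom, and paraquat a herbicide that passes electrons to oxygen. The genotype label names CypD for all 3 day-8 libraries, while the description of the series' design gives no introduced CypD for day 8. The title of the series names the mitoflash, a brief burst of superoxide production in a mitochondrion, as the regulator of interest. The sources used here do not give doses, the reprogramming factors or the number of cultures behind a library.

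The library totals lay between 2426010 and 3426700 expected counts (to 6 digits). With 1 library per group no difference below has a replicate check and no p-value is given. Intervals are 95% counting intervals and cover counting error only. Ppif stood at 44.2 scaled CPM (counts for each 1000000 of the TMM-scaled library) in the Flag library and 761 in the CypD library, against 29.2, 33.3 and 34.2 in the control, mastoparan and paraquat libraries of day 8. The high Ppif level was therefore seen in the day-4 CypD library and not in the day-8 libraries that carry the same genotype label. All 8 fibroblast markers had counts in every library, with a summed level of 6631 to 6660 scaled CPM at day 4 and 6140 to 6307 at day 8. Vim carried the largest part, at 3406 to 3864, and single markers went both ways. Vim, Col1a2, Twist1 and Prrx1 were lower in every day-8 library than in both day-4 libraries. Col1a1, Thy1 and Pdgfrb were higher, and Col3a1 overlapped. The 6 epithelial markers summed to 191 to 208 scaled CPM at day 4 and 634 to 720 at day 8. In bulk RNA a change in the number of cells of a type cannot be told apart from a change in RNA per cell.

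The sequences around the start sites of Bnip3, Ulk1, Gabarapl1 and Map1lc3b are shown as examples of genes that were higher in all 3 day-8 libraries than in both day-4 libraries, by very different amounts. Each window runs from 250 bases before the start site to 50 bases after it and is written 5′ to 3′ on the strand of the gene, from RefSeq on GRCm38.p6. Capitals mark every match to ACGTG or GCGTG on either strand, the core letters of the hypoxia response element bound by hypoxia-inducible factors. The Bnip3 window lies at chr7:138909457-138909756 on the minus strand, and that of Ulk1 at chr5:110810032-110810331 on the minus strand. The Gabarapl1 window lies at chr6:129532942-129533241 on the plus strand, and that of Map1lc3b at chr8:121590188-121590487 on the plus strand.
Bnip3: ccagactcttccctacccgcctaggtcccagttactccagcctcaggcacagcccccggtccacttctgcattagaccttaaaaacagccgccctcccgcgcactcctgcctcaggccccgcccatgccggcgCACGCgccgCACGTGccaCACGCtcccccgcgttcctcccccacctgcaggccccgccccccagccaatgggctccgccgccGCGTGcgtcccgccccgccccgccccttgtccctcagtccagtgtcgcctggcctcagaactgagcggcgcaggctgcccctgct
Ulk1: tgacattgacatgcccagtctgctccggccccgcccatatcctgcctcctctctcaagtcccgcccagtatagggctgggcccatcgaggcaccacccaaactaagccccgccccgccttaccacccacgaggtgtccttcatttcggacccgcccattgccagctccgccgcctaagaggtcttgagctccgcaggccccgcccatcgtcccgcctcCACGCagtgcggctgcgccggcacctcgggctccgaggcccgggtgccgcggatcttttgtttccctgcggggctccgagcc
Gabarapl1: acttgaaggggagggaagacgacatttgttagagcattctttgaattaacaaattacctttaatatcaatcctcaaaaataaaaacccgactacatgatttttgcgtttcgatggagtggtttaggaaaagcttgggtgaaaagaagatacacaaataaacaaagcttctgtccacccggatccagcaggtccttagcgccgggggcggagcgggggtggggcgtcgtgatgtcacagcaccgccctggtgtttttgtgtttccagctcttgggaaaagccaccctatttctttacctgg
Map1lc3b: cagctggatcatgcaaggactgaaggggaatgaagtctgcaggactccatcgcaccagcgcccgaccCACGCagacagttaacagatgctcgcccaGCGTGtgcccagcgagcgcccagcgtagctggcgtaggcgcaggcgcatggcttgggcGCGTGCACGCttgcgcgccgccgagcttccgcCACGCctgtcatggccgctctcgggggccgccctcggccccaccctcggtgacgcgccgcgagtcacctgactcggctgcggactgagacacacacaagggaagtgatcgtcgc

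In the Bnip3 window ACGTG was found on both strands at bases -108 and -107 from the start site, which are overlapping readings of the same E-box, CACGTG, at -108. GCGTG matched at -117, -99 and -35 as well, so 4 separate stretches of the Bnip3 window are in capitals. The Ulk1 window held 1 GCGTG, at -32, and the Gabarapl1 window held neither motif. The Map1lc3b window held 5 matches to GCGTG and none to ACGTG. Map1lc3b differed far less between the days than Bnip3, and whether the matches bear on the levels was not tested. Windows with a match are common. Of 32851 mouse promoter windows of the same length, 19.6% held ACGTG on either strand, 32.4% held GCGTG, 43.8% held at least 1 of them and 7.15% held CACGTG.

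The windows of 9 of the 10 genes were matched by symbol, and that of Bnip3l was not. Among the others the Optn window held 3 matches to GCGTG, the Pink1 window 1 and the Phb2 window 1 to ACGTG, at -198. The windows of Fundc1 and Sqstm1 held neither. TGACNNNGC, the core of the antioxidant response element, was searched on both strands and matched in Map1lc3b alone, at 5 bases after the start, and in 12.4% of all windows. GTAAACA, a Foxo-type core, matched in none of the 9 and in 3.65% of all windows. A match is a string of letters and not a site shown to be bound.

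**Figure D1:**
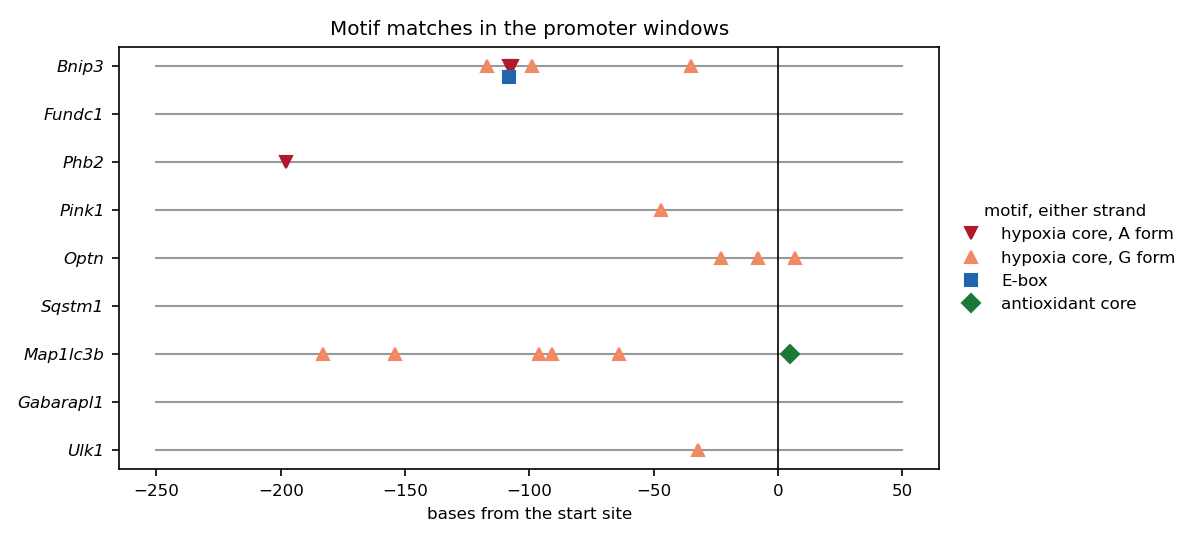
Positions of motif matches on either strand in the promoter windows of 9 receptor genes, in bases from the start site. Bnip3 holds the E-box at -108 with 3 further G-form hypoxia cores, while Fundc1, Sqstm1 and Gabarapl1 hold no match.

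The deposited TPM scale allows levels of different genes to be compared per length. By the mean on that scale Phb2 was the highest of the 10 genes and Fundc1 the lowest. By mean TPM over the 5 libraries Phb2 ranked 227 of 13585 genes, Sqstm1 437, Map1lc3b 552 and Bnip3 753. Bnip3l ranked 1079, Gabarapl1 1325 and Pink1 1338, and these 3 genes lay close together. Optn ranked 5589, Ulk1 5739 and Fundc1 6276. Phb2, Sqstm1 and Map1lc3b were thus abundant mRNAs in these cells, and the mRNA of the initiating kinase Ulk1 was of middling level.

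Bnip3 encodes an outer-membrane receptor of the Bcl2 homology family and lies on the minus strand at chr7:138890836-138909519 (mm10). Its counts were 233 in the Flag library, 332 in CypD, 1168 in the day-8 control, 1074 in mastoparan and 839 in paraquat. On the scaled CPM scale these are levels of 91.9, 96.1, 379, 377 and 363 in the same order. The 3 day-8 libraries lay together and far above both day-4 libraries. The level in the day-8 control was 4.12-fold that in the Flag library (interval 3.58 to 4.76), the largest such fold of the 10 genes. Across the 6 pairs of a day-8 and a day-4 library the fold ranged from 3.78 to 4.12 on scaled CPM and from 2.94 to 4.00 on deposited TPM. Of 4503 genes that averaged at least 50 scaled CPM in those libraries, 17 had a log2 ratio at least as high as that of Bnip3, itself included. Within day 8 Bnip3 differed little in scaled CPM. The fold was 0.995 (0.915 to 1.08) for mastoparan over control and 0.960 (0.877 to 1.05) for paraquat over control. On deposited TPM the ratio for paraquat over control was 0.779, outside that interval. The median log2 ratio of all genes on that scale was itself -0.28 in this comparison.

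Bnip3l encodes the closest relative of Bnip3 and lies on the minus strand at chr14:66985239-67008877. It had 296, 411, 583, 528 and 440 counts in the Flag, CypD, control, mastoparan and paraquat libraries, or levels of 117, 119, 189, 185 and 191 scaled CPM. Its day-8 libraries again lay together above both day-4 libraries, but by less. The level in the day-8 control was 1.62-fold that in Flag (1.40 to 1.87), and the 6 pairs ranged from 1.56 to 1.63 in scaled CPM and from 1.25 to 1.66 in TPM. The ratio of Bnip3 to Bnip3l in TPM was 0.685 in Flag and 0.745 in CypD, and 1.77, 1.62 and 1.71 in the control, mastoparan and paraquat libraries. On deposited TPM Bnip3l was therefore the more abundant of the pair at day 4, and Bnip3 at day 8. The day-4 order rests on the average transcript length behind the TPM of Bnip3l, 1535 bases in Flag and 1547 in CypD. The coding transcripts of Bnip3l have 3238 and 3259 bases, and a longer average would lower its TPM. The day-4 order thus depends on how reads were divided among transcripts.

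Fundc1 encodes the third outer-membrane receptor, which is controlled by phosphorylation and has been tied to hypoxia-induced mitophagy in human cells. It lies at chrX:17556564-17572325 on the minus strand. In Flag and CypD its 18.9 and 21.2 TPM were above the 16.3 and 14.2 of Ulk1. By mean TPM over the 5 libraries Fundc1 was nevertheless the least abundant of the 10. Its counts were 62, 77, 52, 57 and 45 in the order Flag, CypD, control, mastoparan and paraquat, with levels of 24.5, 22.3, 16.9, 20.001 and 19.5 scaled CPM. All 3 day-8 libraries were below both day-4 libraries, the opposite order to Bnip3. The fold of the day-8 control over Flag was 0.689 (0.467 to 1.01), an interval that holds 1. In TPM the ratio of Bnip3 to Fundc1 was 4.26 in Flag and 4.03 in CypD, against 18.3 to 21.4 at day 8.

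Phb2, prohibitin 2, is an inner-membrane protein that can bind the Atg8 protein LC3 once the outer membrane is broken, and it lies at chr6:124712336-124716950 on the plus strand. Its counts were 1255, 1820, 1327, 1252 and 1291, and its levels 495, 527, 430, 439 and 559 scaled CPM in the same order. The paraquat library was the highest and the control and mastoparan libraries the lowest, so that the days overlapped, whereas on deposited TPM the day-8 levels were the lower, at 0.822- to 0.945-fold over the 6 pairs. The level in paraquat was 1.30-fold that in the day-8 control (1.20 to 1.40), a log2 ratio of 0.38. Log2 ratios of all genes in that comparison varied with transcript length, from a median log2 ratio of 0.25 in the shortest genes to -0.19 in the longest, each group holding 25% of the genes. With the trend along length removed, the log2 ratio of Phb2 was 0.17, and on deposited TPM it was 0.14, so the size of the difference depended on the scale.

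Pink1, the kinase that accumulates on depolarised mitochondria, lies at chr4:138313409-138326307 on the minus strand. It had 414, 538, 540, 531 and 428 counts and levels of 163, 156, 175, 186 and 185 scaled CPM. The day-8 levels were above the day-4 levels in each of the 6 pairs, but only by 1.07- to 1.20-fold. The fold of the day-8 control over Flag was 1.07 (0.941 to 1.22), an interval that holds 1. In TPM the ratio of Bnip3 to Pink1 was 0.695 and 0.795 in the Flag and CypD libraries and 2.48, 2.38 and 1.98 in the control, mastoparan and paraquat libraries.

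Optn, optineurin, binds ubiquitin chains and LC3 and lies at chr2:5020642-5064051 on the minus strand. Its counts were 105, 120, 102, 116 and 83, and its levels 41.4, 34.7, 33.1, 40.7 and 36.0 scaled CPM. The libraries of the 2 days overlapped, and every fold interval in the 5 comparisons held 1. The other soluble receptor, Sqstm1, gathers ubiquitinated cargo and is itself degraded by autophagy, and it lies at chr11:50199366-50210827 on the minus strand. It had 858, 1150, 1216, 1125 and 857 counts, or 339, 333, 394, 395 and 371 scaled CPM. All 3 day-8 levels of Sqstm1 were above both day-4 levels, by 1.10- to 1.19-fold. Sqstm1 shares 15.6% of its 49-base windows with the overlapping gene Mrnip, and counts summed with that gene gave log2 ratios within the counting intervals of Sqstm1.

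Map1lc3b encodes LC3B, the Atg8 protein most used to mark autophagosomes, and lies at chr8:121590361-121598760 on the plus strand. It had 687, 846, 940, 854 and 739 counts, or 271, 245, 305, 300 and 320 scaled CPM. The day-8 levels were the higher in scaled CPM, by 1.11- to 1.31-fold over the 6 pairs. On deposited TPM the days overlapped, with pair ratios of 0.876 to 1.25. Gabarapl1, an Atg8 protein of the GABARAP branch, lies at chr6:129533160-129542346 on the plus strand. Its counts were 301, 396, 540, 543 and 392, and its levels 119, 115, 175, 191 and 170 scaled CPM. All day-8 levels of Gabarapl1 were above both day-4 levels, by 1.43- to 1.66-fold in scaled CPM and 1.13- to 1.60-fold in TPM. In TPM the ratio of Map1lc3b to Gabarapl1 was 2.80 and 2.56 at day 4 and 1.85 to 2.18 at day 8.

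Ulk1, the kinase that starts autophagosome formation, lies at chr5:110784488-110810097 on the minus strand. It had 143, 176, 291, 248 and 201 counts in the Flag, CypD, control, mastoparan and paraquat libraries, or 56.4, 51.0, 94.4, 87.0 and 87.1 scaled CPM. The day-8 libraries were again together and above both day-4 libraries. The level in the day-8 control was 1.67-fold that in Flag (1.36 to 2.06), and the 6 pairs ranged from 1.54 to 1.85 in scaled CPM and from 1.22 to 1.85 in TPM.

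**Figure D2:**
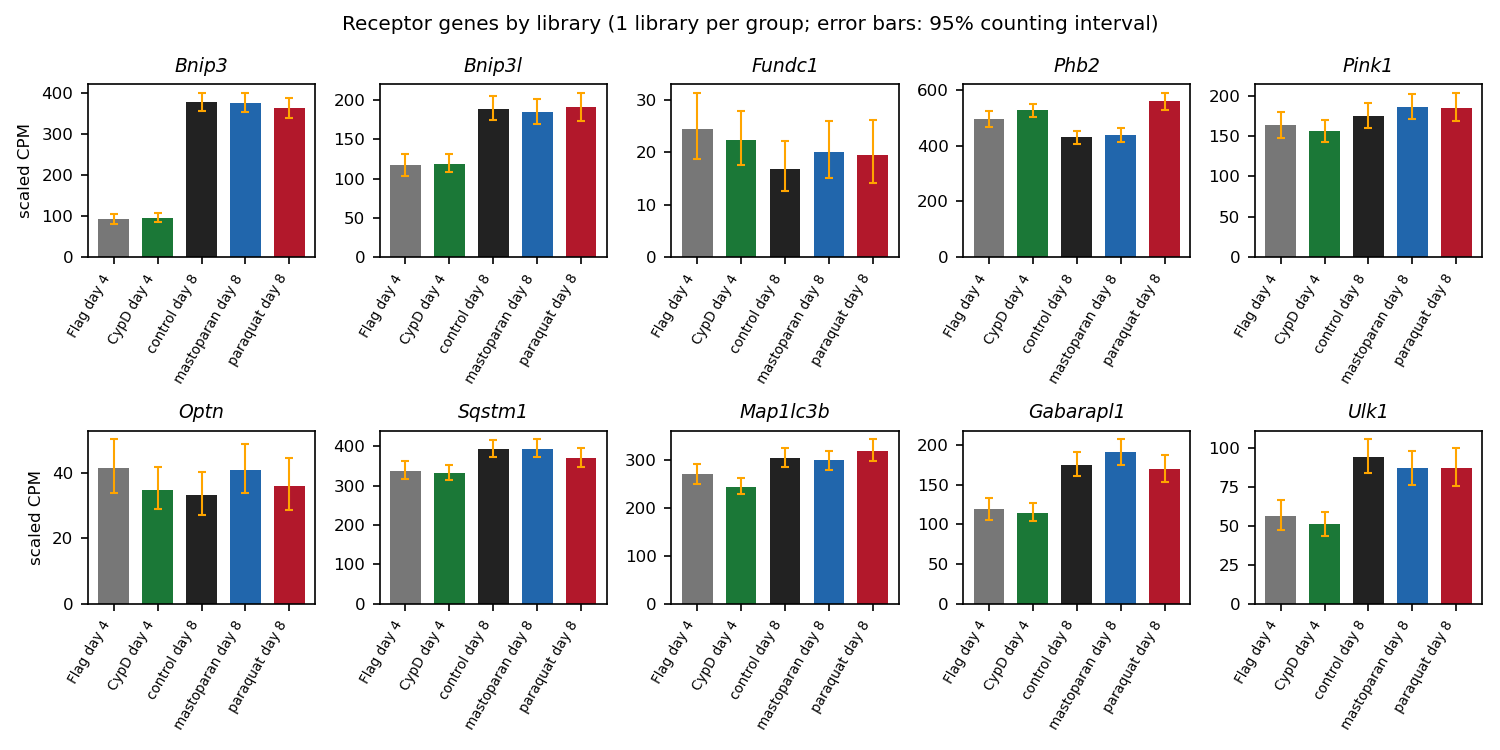
Scaled CPM of each receptor gene in the 5 libraries, with 95% counting intervals as error bars and 1 library per bar. Bnip3 stands at 91.9 and 96.1 at day 4 and between 363 and 379 at day 8, with smaller steps in Bnip3l, Gabarapl1 and Ulk1.

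At day 4, CypD against Flag asks what raised cyclophilin D does to these genes. None of the 10 was past 1.5-fold in either direction, where 5.23% of all genes were past it upward and 5.74% downward. All 10 counting intervals held 1, against 8.32% of all genes whose interval did not. The log2 ratios of the 10 genes lay between -0.25 for Optn and 0.09 for Phb2, with a median of -0.06 beside -0.02 for all genes. With few well-counted genes past 1.5-fold at all (0.545% upward and 0.823% downward among genes of at least 15 CPM), a count of 0 of 10 is near the background.

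At day 8, mastoparan against control gave the same picture. None of the 10 genes was past 1.5-fold, with 5.29% of all genes past it upward and 5.70% downward, and no interval left out 1, as 7.36% of all genes did. Of genes of at least 15 CPM, 0.407% were past 1.5-fold upward and 0.678% downward. The log2 ratios ran from -0.12 for Ulk1 to 0.30 for Optn, with a median of 0.02 beside 0.01 for all genes. The 0.30 of Optn rests on 116 and 102 counts, and its fold of 1.23 had an interval of 0.935 to 1.62.

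Paraquat against control also put none of the 10 past 1.5-fold, with 8.22% of all genes past it upward and 10.5% downward (3.69% and 4.05% of genes of at least 15 CPM). Phb2 was the gene whose interval left out 1, which 21.1% of all genes did. The median log2 ratio of the 10 was 0.04 beside -0.03 for all genes. The average transcript length behind the deposited values was 1775 bases in paraquat and 1989 in control for Pink1 (ratio 0.893), and 1398 and 1630 bases for Sqstm1 (0.858). Shorter averages by at least 10% were found in 14.6% of 6536 genes, and longer ones by as much in 9.53%. Mastoparan and paraquat share the day-8 control, and set against each other directly they again left 0 of 10 genes past 1.5-fold, with 9.26% of all genes past it upward and 7.72% downward (3.47% and 2.55% of genes of at least 15 CPM). Phb2, at 0.785-fold (0.726 to 0.850), was the gene whose interval left out 1 there, beside 19.3% of all genes.

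**Figure D3:**
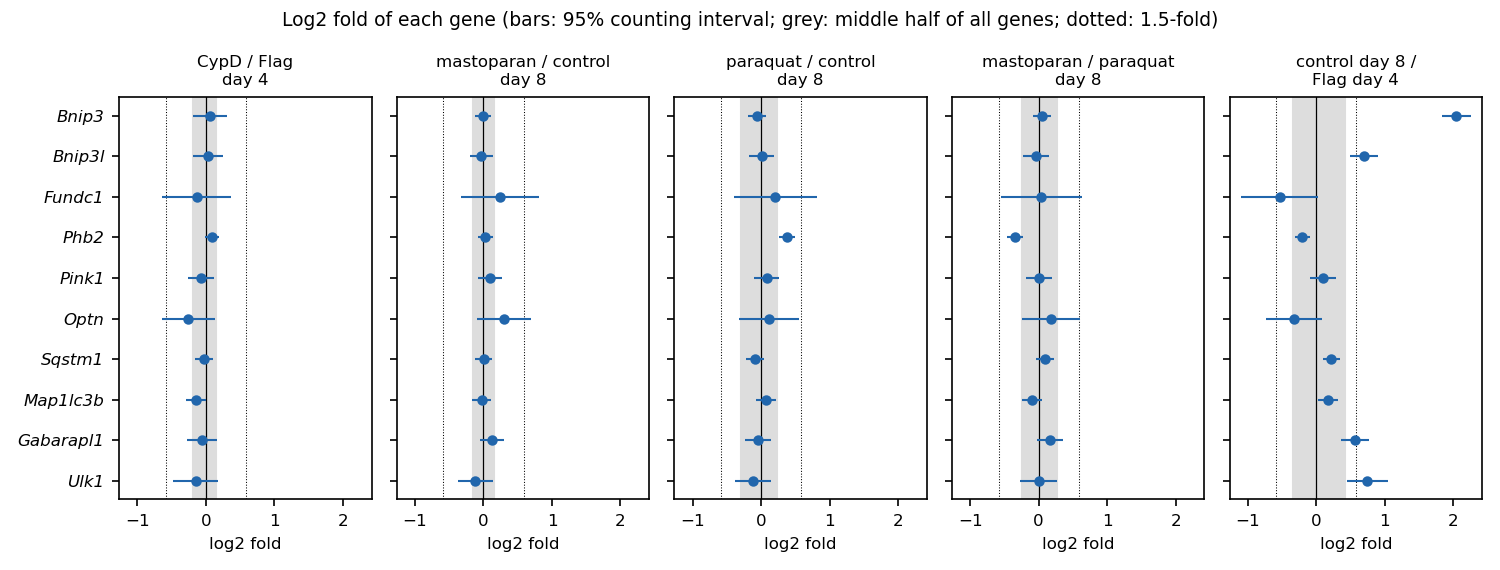
Log2 fold of each receptor gene in the 5 comparisons, with 95% counting intervals, the middle range of all genes in grey and 1.5-fold as dotted lines. The 4 comparisons within a day lie near 0 with Phb2 in paraquat at 0.38, and the comparison of days sets Bnip3 apart at 2.04.

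The largest differences were between the days. In the day-8 control against the day-4 Flag library, 3 of 10 genes (Bnip3, Bnip3l and Ulk1) were past 1.5-fold upward and none downward, with 18.6% of all genes past it upward and 12.9% downward (10.3% and 10.2% of genes of at least 15 CPM). The count of 3 of 10 is not far from that background, so it is no result about the 10 genes as a group. Gabarapl1 lay just short of that line at 1.47-fold (1.28 to 1.70). Intervals of 7 of the 10 left out 1, against 37.3% of all genes. That share takes in genes down to 1 CPM, where counts are low and intervals wide, so the comparison is not like for like. Besides Bnip3, Bnip3l, Ulk1 and Gabarapl1, Sqstm1 stood at 1.16-fold (1.07 to 1.27) and Map1lc3b at 1.12-fold (1.02 to 1.24), while Phb2 was lower at 0.869-fold (0.804 to 0.939). The median log2 ratio of the 10 was 0.19, beside -0.00 for all genes.

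Over all 5 libraries, 7 of the 10 genes had every day-8 level above every day-4 level, and Fundc1 had every day-8 level below. On deposited TPM 6 lay fully above, Fundc1 and Phb2 lay fully below, and Map1lc3b and Optn overlapped. In all genes 28.5% lay fully above and 28.1% fully below, and among genes of at least 15 CPM the shares were 26.9% and 34.1%. Bnip3, Bnip3l and Ulk1 were past 1.5-fold upward in all 6 pairs, beside 8.72% of all genes and 5.8% of those of at least 15 CPM. On deposited TPM 1 of them, Bnip3, was past it in all 6 pairs, as the lowest pair was 1.25-fold for Bnip3l and 1.22-fold for Ulk1, and with library totals alone the lowest pair for Ulk1 was 1.45-fold. None of the 10 was past 1.5-fold downward in all 6 pairs, beside 3.61% of all genes and 3.4% of those of at least 15 CPM. Day and culture differ together in every pair and cannot be told apart. In the pairs with the Flag library the introduced gene named in the labels differs as well. By measurement, Ppif stood at 44.2 scaled CPM in Flag, 761 in CypD and 29.2 to 34.2 at day 8. Its level thus differed most in the pairs with the CypD library. In pairs with the mastoparan or paraquat library the treatment differs too. Epithelial markers were higher at day 8, with the same split of libraries. The 4 neural markers summed to 71.2 to 74.98 scaled CPM at day 4 and 26.9 to 41.4 at day 8, which was carried by Tubb3 with 146, 181, 58, 57 and 34 counts, while Sox1 had 9, 12, 9, 17 and 15. The part of cell makeup in the differences was not tested. Macrophage markers summed to 5.52 to 7.53 scaled CPM at day 4 and 15.1 to 18.5 at day 8. Cd68 carried most of each sum, at 5.13 to 17.2, and Adgre1 was at 0 in every library. Endothelial markers summed to 48.5 to 60.7, carried by Tek at 46.4 to 55.1, with Cdh5 at 0 in every library.

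For each member spanning at least 0.5 in log2 level, the genes with the most similar profile were sought among 4342 genes of at least 50 scaled CPM. Similarity was measured by the root-mean-square difference of centred log2 levels over the 5 libraries. Nearest to Bnip3 was Ndrg1, a hypoxia- and stress-inducible gene, at 0.04, with 81, 118, 411, 367 and 277 counts. The next was Fxyd6, a modulator of the sodium pump, at 0.09. Nearest to Bnip3l were Grina at 0.01 and Pfkl, the liver-type phosphofructokinase, at 0.03. Jarid2, a partner of Polycomb complex 2, and Itpk1, an inositol phosphate kinase, were nearest to Gabarapl1, both at 0.02. Mxra8 at 0.03 and Prpf40b at 0.04 were nearest to Ulk1, and Mapkap1, a subunit of mTOR complex 2, at 0.03 and Psmd7, a proteasome subunit, at 0.04 to Fundc1. Fundc1 spanned only 0.52 on 45 to 77 counts, and its interval between the days held 1, so its nearest genes may match counting error.

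Bnip3 is known as a hypoxia-inducible gene, so 17 other hypoxia-inducible genes were listed beside it, a list made after the values of Bnip3 were known. In the day-8 control against Flag all 17 had a log2 ratio above 0 and 13 were past 1.5-fold upward, beside 18.6% of all genes and 10.3% of those of at least 15 CPM. They had a median log2 ratio of 0.99 and a range of 0.34 to 2.35. The glucose transporter gene Slc2a1 stood at 2.35, Ankrd37 at 2.10 and the prolyl hydroxylase gene Egln3 at 2.05, close to the 2.04 of Bnip3 and Ndrg1. Vegfa, the angiogenic growth factor, stood at 1.41. In 15 of the 17, all but Adm and Kdm3a, every day-8 level was above every day-4 level, beside 28.5% of all genes. Car9, counted in the 15 and in the 13, had only 2, 0, 5, 10 and 8 counts, around the floor of 3. Adm, counted in the 13, had 14 counts in Flag and 36 in the day-8 control. Having been listed with Bnip3 in view, the 17 genes are no independent support for it. Within a day the list lay near 0 where paraquat was not involved. The median log2 ratio was 0.03 over the 16 measured for CypD over Flag and 0.00 for mastoparan over control. For mastoparan over paraquat it was 0.23 with 14 of 17 above 0. For paraquat over control it was -0.19 with 12 of 17 below 0. Bnip3 itself, at -0.06 in that comparison, lay above that median. Hif1a, which encodes the oxygen-regulated subunit of the factor, went the other way as an mRNA, with 159, 188, 119, 111 and 81 counts and a log2 ratio of -0.69 for the day-8 control over Flag.

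**Figure D4:**
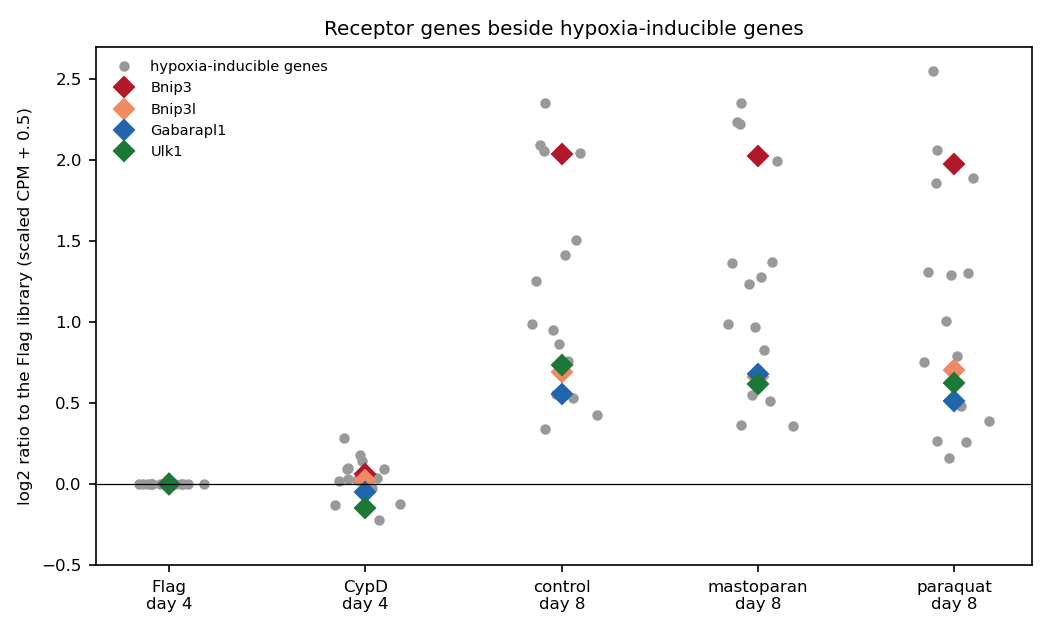
Log2 ratio to the Flag library of Bnip3, Bnip3l, Gabarapl1 and Ulk1 (diamonds) and of the 15 listed hypoxia-inducible genes with at least 20 counts in the Flag library (grey points). Bnip3 lies with the highest group of hypoxia-inducible genes at day 8, and Bnip3l, Gabarapl1 and Ulk1 lie in the lower part of their range.

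A list of 96 other autophagy genes in 9 roles was measured in the same libraries. In the day-8 control against Flag, 9 were past 1.5-fold upward and 1 downward, beside 18.6% and 12.9% of all genes (10.3% and 10.2% of genes of at least 15 CPM). The upward count is near or under the background and the downward count is under it, and the median log2 ratio was 0.08. Across the 5 libraries 30 had every day-8 level above every day-4 level, 26 had every level below and 40 overlapped, where 28.5% of all genes lay fully above and 28.1% fully below. The 3 other Atg8 genes lay on the side of Gabarapl1. Map1lc3a, with 164, 271, 318, 255 and 333 counts, had a log2 ratio of 0.67, Gabarapl2 of 0.43 and Gabarap of 0.25, and each was higher in every day-8 library. On deposited TPM the days overlapped for Gabarap and Gabarapl2, and with the length trend removed the ratio of Map1lc3a was 0.49, short of 1.5-fold.

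In the initiation complex around Ulk1, its paralog Ulk2 lay on the other side. Ulk2 had 60, 85, 56, 57 and 40 counts and was lower at day 8 in every pair, as were 28.1% of all genes. Its log2 ratio for the day-8 control over Flag was -0.37, on low counts that leave room for counting error. Its scaffold partner Atg13 was higher in every pair, though not on deposited TPM, and stood at 1.36-fold (1.05 to 1.77), and Atg101 overlapped. Among genes that supply membrane, Wipi1, which binds the lipid of the forming autophagosome, had 59, 86, 185, 148 and 108 counts and stood at 2.58-fold (1.91 to 3.52). Its relative Wdr45 stood at 1.40-fold (1.12 to 1.76), and the lipid transporter Atg2a was lower at 0.700-fold (0.565 to 0.865). In the lipid kinase complex, Uvrag was lower in every day-8 library, and Atg14 and Ambra1 overlapped.

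The 10 conjugation genes, whose products attach Atg8 proteins to lipid, had 3 log2 ratios above 0 and 7 below. The activating enzyme gene Atg7 overlapped between the days, at 0.942-fold (0.723 to 1.23), and so did Atg4a. The protease gene Atg4d had a log2 ratio of 0.64, but it shares 18.3% of its windows with the overlapping Kri1 and counts summed over both gave 0.12. Among the 19 fusion and lysosome genes 10 were higher in every pair, 5 lower and 4 overlapping, beside 28.5% of all genes higher and 28.1% lower (26.9% and 34.1% of genes of at least 15 CPM). Their median log2 ratio was 0.24. The SNARE gene Vamp8 (1.30-fold, 1.07 to 1.58) and the sialidase gene Neu1 (1.40-fold, 1.07 to 1.84) were among the higher ones, Neu1 not on deposited TPM, and the galactosidase gene Gla among the lower ones.

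Among 18 other cargo receptors, Ccpg1, a receptor for the endoplasmic reticulum, had a log2 ratio of 0.93, and 0.55 when summed with Pigb, with which it shares 26.3% of its windows. Ncoa4, the receptor for ferritin, showed how shared sequence bears on single values. It had 76, 45, 157, 67 and 143 counts, with log2 ratios of -1.17 for CypD over Flag, -1.10 for mastoparan over control and 0.75 for the day-8 control over Flag. It shares 39.2% of its windows, and summed over Ncoa4 and its copy Gm6768 the counts were 170, 229, 205, 198 and 143, with a log2 ratio of -0.01 between the days. Atl3 overlapped between the days and was lower in paraquat than in control, at 0.592-fold (0.436 to 0.796).

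The 14 genes that handle Pink1 and its ubiquitin chains had a median log2 ratio of -0.18 between the days, with 2 higher in every pair, 7 lower and 5 overlapping, beside the same shares of all genes (28.5% higher and 28.1% lower). Tomm7, an import receptor subunit that stabilises Pink1, stood at 1.58-fold in paraquat over control (1.42 to 1.75) and at 1.29-fold on deposited TPM, and the protease gene Oma1 overlapped between the days.

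Within the days the median log2 ratio of the list of 96 lay near 0, while single genes lay much further out. The medians ran from -0.04 for paraquat over control to 0.03 for mastoparan over paraquat, where 4 were past 1.5-fold upward and 4 downward. CypD over Flag had none past 1.5-fold upward and 2 downward, and mastoparan over control none upward and 3 downward. Paraquat over control had 3 upward, Tomm7 and Vamp8 among them, and 4 downward, Mitf at a log2 ratio of -0.84, Atg14 at -0.81, Atl3 at -0.75 and Usp8 at -0.62. Set against all genes these counts are smaller shares of the 96. Set against genes of at least 15 CPM the downward counts of CypD and mastoparan are larger shares and that of paraquat is close. The latter is not like for like, because the 96 were not held to 15 CPM. Ncoa4 is in the downward counts of both CypD and mastoparan. Summed with its copy Gm6768, its log2 ratios were -0.02 for CypD over Flag and 0.06 for mastoparan over control. On deposited TPM Tomm7 stood at 1.29-fold and Vamp8 at 1.26-fold in paraquat over control, so neither was past 1.5-fold there. With the length trend removed the log2 ratios were 0.42 for Tomm7, 0.27 for Vamp8, -0.56 for Atl3 and -0.47 for Usp8, all short of 1.5-fold. Of the upstream regulators, the energy-sensing kinase genes Prkaa1 and Prkaa2 differed between the days by 0.892-fold (0.679 to 1.17) and 1.69-fold (0.938 to 3.15), and both intervals held 1.

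**Figure D5:**
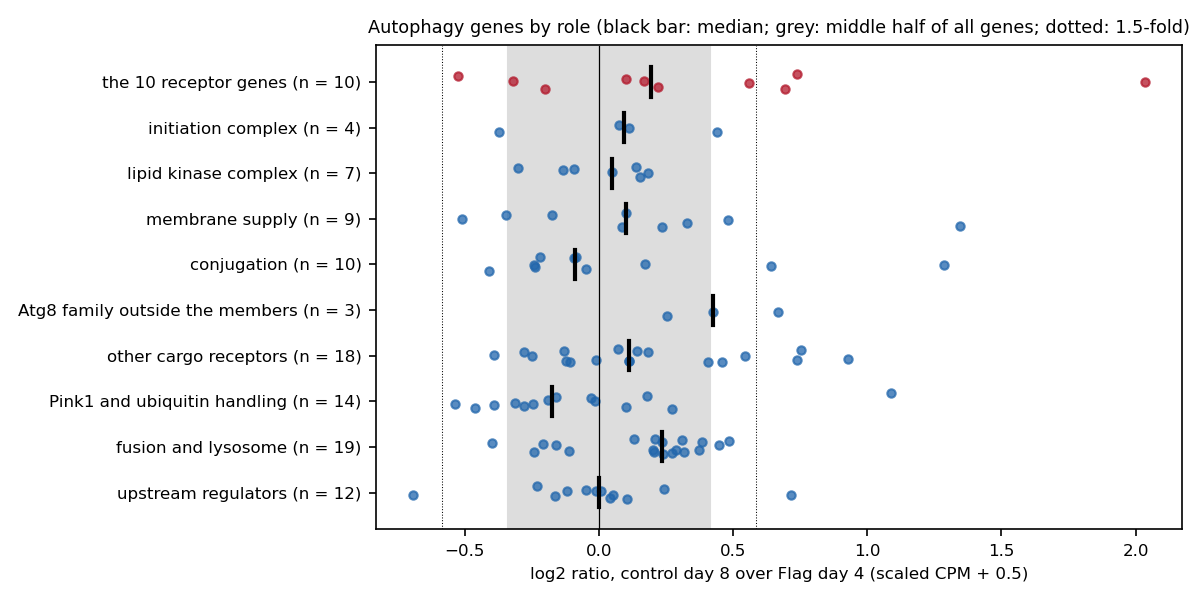
Log2 ratio of the day-8 control over the Flag library for the 10 receptor genes and 96 other autophagy genes by role, with group medians as bars, the middle range of all genes in grey and 1.5-fold as dotted lines. Medians run from -0.18 for Pink1 and ubiquitin handling to 0.43 for the other Atg8 genes, and Bnip3 at 2.04 has the highest ratio shown.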

How the data were processed

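RNA was taken with Trizol and libraries made from 1 ug of total RNA with a TruSeq RNA kit, per the labels' protocols. Bowtie2 2.2.5 and the mm10 genome are named in the submitters' processing notes, and no counting program or annotation is named in these sources. Per the file headers, the authors deposited for each gene an expected count, a TPM, an FPKM and lengths. Of the deposited expected counts 16.8% to 19.0% in a library were not whole. The deposited FPKM entered no result, and the deposited TPM was used to compare genes with each other and as an alternative scale.

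IDs were matched to GENCODE M21 (GRCm38, the assembly of mm10), which named 28756 of 29267. Expected counts were rounded and scaled by TMM factors of 0.951 to 1.02 (edgeR 4.0.16, R 4.3.3). A log2 ratio compares scaled CPM after adding 0.5 CPM (the pseudocount) and was taken where the 2 libraries averaged at least 1 CPM. Calls are ratios past 1.5-fold, and the percentages of all genes given beside counts use the same rule. Shares of intervals that leave out 1 cover all genes of at least 1 CPM, and intervals narrow as counts rise. Folds have no pseudocount and carry exact Clopper-Pearson intervals, and levels exact Poisson intervals. Amplified reads are not independent molecules, so intervals and the floor of 3 counts cover counting error only. With 1 library per group no test was made.

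Named genes were the 10 members, up to 3 genes per role averaging at least 5 CPM and having the largest absolute log2 ratio in any comparison, the 2 nearest profiles for members spanning at least 0.5 on the log2 scale, and Ppif. Other genes past 1.5-fold were named after their values were seen, and a result for 1 listed gene is left out. The members and lists were chosen with earlier results of these data known. Added after seeing the data were the hypoxia list, the background at 15 CPM, the 6 day pairs, the motifs and the omission of genes sharing at least 20% of their 49-base windows. Those windows were counted in 82533 of 84205 transcripts. Alternatives were library totals, DESeq2 1.42.0 size factors, upper-quartile factors, deposited TPM, other minima and pseudocounts, counts summed with genes sharing at least 5% of windows, and removal of the trend along transcript length in 40 bins. The code was tested on simulated data. Python 3.11.15, numpy 2.4.6, scipy 1.17.1, pandas 2.3.3 and matplotlib 3.10.9 were used.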

Additional observations from a re-analysis of the deposited data

How the results depend on the processing

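The number of the 10 genes past 1.5-fold stayed within 1.5 times its value under every alternative run, in each comparison between 2 libraries. Over all 6 day pairs, the 3 genes past 1.5-fold became 2 with library totals alone and 1 on deposited TPM. For the 96 other autophagy genes the 2 past 1.5-fold in CypD over Flag became 5 on deposited TPM, 1 at a minimum of 5 CPM and 1 with genes sharing at least 20% of their sequence left out, an alternative added after seeing the data. The 7 in paraquat over control became 15 on deposited TPM (2 higher and 13 lower) and 4 with the length trend removed. The 8 in mastoparan over paraquat became 5 with a pseudocount of 2 CPM and 5 with the length trend removed. Of 455 values of single members under alternatives, 441 stayed within their counting interval and 14 moved outside it (12 on deposited TPM, 2 with the length trend removed). The 441 take in 50 values with no minimum and 50 at a minimum of 5 CPM, which could not move because a minimum only drops genes. A reversal could be scored only for the 3 called ratios of the day-8 control over Flag, and 0 reversed. Deposited TPM moved the median log2 ratio of all genes to -0.28 for paraquat over control and to 0.22 for mastoparan over paraquat, and library totals moved the former to -0.13. No paired analysis was possible because each group has 1 library. Depth limits Fundc1 and Optn most, at 45 to 77 and 83 to 120 counts. No library could be left out within a comparison, and differences between cultures are not measured.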
